A study of Mus musculus with 35 samples.

Results

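Heat shock proteins are molecular chaperones: they bind unfolded or partly folded proteins, keep them from aggregating, and return them to a folding path or hand them to degradation. HSP70 proteins work in cycles driven by ATP, J-domain proteins bring them their clients and start the cycle, HSP110 proteins reset it, HSP90 completes the folding of signalling proteins, and small heat shock proteins hold unfolded chains without ATP. Many of these genes are switched on together by heat shock factor 1 (HSF1), whereas the chaperone of the endoplasmic reticulum is induced by the unfolded protein response, and both systems are studied in Huntington's disease since the mutant huntingtin protein misfolds and aggregates.

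The 10 genes described here are Hspa1a, Hspa1b, Hspa5, Hspa8, Hspb1, Hsp90aa1, Hsph1, Dnajb1, Dnajb5 and Cryab, taken by name from the 22099 genes listed in a table of striatal mRNA. Lists of other chaperone and stress genes are set beside them. The name Hsph1 was not in the table, and its older name, Hsp110, was used. RefSeq also gives Hsp110 as a name of Hspa4, which is listed separately, so this match is an inference. All 10 passed the filter on low counts, which 17639 genes passed.

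The table holds 1 library for each of 35 female mice on a C57BL/6J background, in 6 groups. Mice were either B6.Htt Q111/+, in which 1 copy of the endogenous huntingtin gene carries a knocked-in expanded CAG tract, or Htt +/+ littermates, and each received 1 of 3 weekly intraperitoneal treatments from 2 to 10 months of age. The groups were saline at 4 µL/g (6 Htt +/+ and 6 Htt Q111/+ mice), a control antisense oligonucleotide (control ASO) with no target in the mouse genome at 50 mg/kg (5 Htt +/+ and 6 Htt Q111/+), and an Htt ASO at 50 mg/kg (6 and 6). Mice were 299 to 304 days old when the striatum was taken, the right side in all but 1 Htt +/+ mouse on Htt ASO. Antisense oligonucleotides given this way act mainly outside the brain, so the Htt ASO groups are a model of huntingtin lowering in peripheral tissue. Replicate numbers within a group only name the mice.

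Libraries held 32200158 to 38641924 expected counts (median 35538941), and levels below are in CPM, the count of a gene as a share of its library after TMM scaling, which corrects for library size and composition. Htt mRNA, the targeted gene, had medians of 87.2, 92.7 and 85.4 CPM in Htt +/+ mice on saline, control ASO and Htt ASO, and 78.9, 73.5 and 72.0 CPM in Htt Q111/+ mice, with overlapping ranges between treatments in both genotypes. It was lower in Htt Q111/+ mice (log2 fold change -0.23, SE 0.055, adjusted p = 0.001), and its Htt ASO comparisons did not pass the test. Libraries came from 6 lanes by their titles. Of these, 5 held both genotypes and lane 7 held 6 Htt Q111/+ mice and no Htt +/+ mouse. One Htt +/+ control ASO library, replicate 1, stood apart in choroid plexus markers, whose summed level was 1579 CPM against 148 CPM in the next highest library, and another, replicate 2, in endothelial (320 CPM against 243) and blood markers (240 CPM against 144). For the chaperone genes described here, values without them are given where they changed a call. Calls in the other gene lists were not retested without them.

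The promoters of 4 genes that were higher in Htt Q111/+ mice are shown since they hold matches to the elements through which both stress systems are known to act. They are the 150 bases before the start of transcription from RefSeq on GRCm38.p6, written 5′ to 3′ on the gene's own strand, at chr17:34972157-34972306 (minus strand) for Hspa1a, chr17:34959239-34959388 (minus) for Hspa1b, chr5:135887769-135887918 (plus) for Hspb1 and chr2:34771940-34772089 (plus) for Hspa5. Capitals mark 2-unit heat shock elements (GAANNTTC or TTCNNGAA, each the same on both strands) and the endoplasmic reticulum stress element (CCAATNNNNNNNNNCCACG or its reverse complement).
Hspa1a: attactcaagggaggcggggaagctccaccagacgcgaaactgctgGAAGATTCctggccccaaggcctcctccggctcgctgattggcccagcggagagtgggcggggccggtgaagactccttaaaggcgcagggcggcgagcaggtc
Hspa1b: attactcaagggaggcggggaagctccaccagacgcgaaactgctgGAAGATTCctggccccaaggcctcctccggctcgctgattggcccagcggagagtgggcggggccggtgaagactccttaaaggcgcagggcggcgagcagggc
Hspb1: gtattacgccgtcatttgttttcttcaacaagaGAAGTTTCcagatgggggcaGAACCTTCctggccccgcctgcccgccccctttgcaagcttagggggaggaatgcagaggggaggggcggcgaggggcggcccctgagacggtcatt
Hspa5: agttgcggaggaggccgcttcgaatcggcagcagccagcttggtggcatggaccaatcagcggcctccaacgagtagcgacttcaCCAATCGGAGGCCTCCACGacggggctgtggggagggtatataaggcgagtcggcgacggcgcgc

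The Hspa1a and Hspa1b promoters are nearly 1 sequence: 149 of these 150 bases, and 247 of the 250 bases before the start, were identical. Both hold GAAGATTC beginning 104 bases before the start, and Hspb1 holds 2 such elements, beginning at 117 and 97 bases. Promoters were listed for 7 of the 10 genes, and not for Hspa8, which was also higher in Htt Q111/+ mice, Hsp90aa1 or Cryab. Over the 250 bases before the start, GAANNTTC was in 3 of the 7 (Hspa1a, Hspa1b and Hspb1) and in 6.69% of all 32851 promoters listed. TTCNNGAA was in 1 (Hsph1, which did not pass the genotype test and is not shown) and in 7.17% of all. The 3-unit form GAANNTTCNNGAA, read on both strands, was in none of the 7 and in 0.466% of all. The stress element was in the Hspa5 promoter alone of the 7, beginning 65 bases before the start, and in 0.113% of all promoters. These matches describe letters in this window and were not tied to binding.

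The 10 genes spanned a wide range of levels. Per kilobase of the principal GENCODE transcript, Hspa8, the constitutive cytosolic HSP70, had the highest level, 845 ± 75.4 CPM per kb (SD, n = 35), followed by Hsp90aa1, the stress-inducible form of cytosolic HSP90, at 284 ± 20.1. Cryab (131 ± 18.6), Hsph1 (120 ± 10.7) and Hspa5 (117 ± 13.3) came next, and their order does not hold mouse by mouse: Cryab was above Hsph1 in 25 of 35 mice and Hsph1 above Hspa5 in 20. Dnajb5 (36.0 ± 3.92) and Dnajb1 (14.1 ± 1.58) were lower without overlap. Hspb1 (mean 5.57, range 3.48 to 7.77), Hspa1b (3.25 ± 1.35) and Hspa1a (2.26 ± 0.691), which stress induces strongly, were at the bottom with overlapping ranges.

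**Figure D1:**
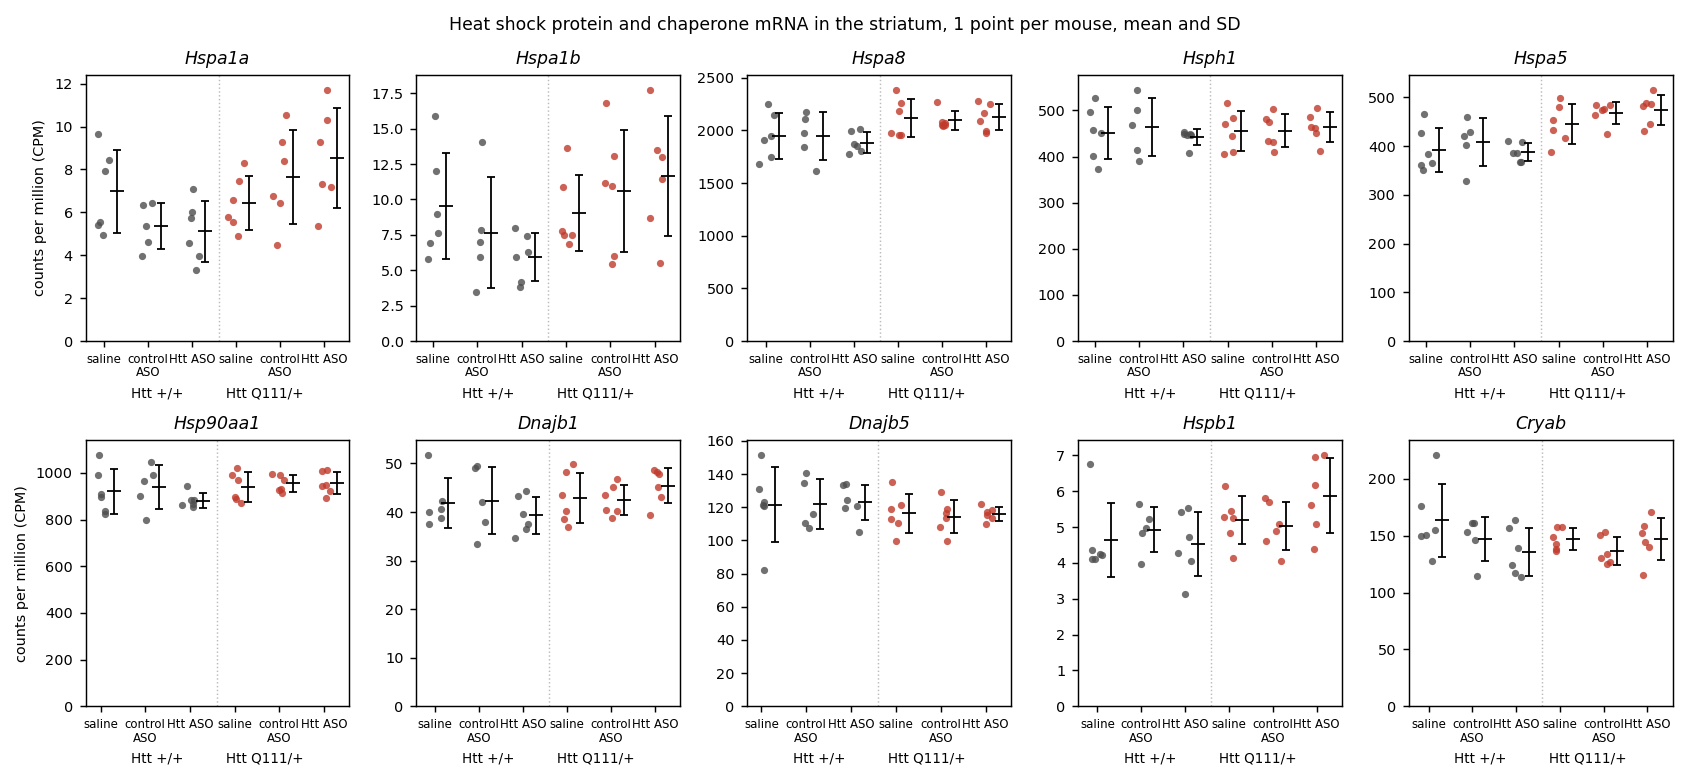
CPM of the 10 genes in each mouse (points), by treatment and genotype, with the mean and SD of each group beside the points; each vertical axis starts at 0. Hspa5 in the 18 Htt Q111/+ mice (red) lies above the Htt +/+ median of 387 CPM in every mouse. The ranges of Hsph1, Dnajb5 and Cryab overlap between the genotypes in each treatment.

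The first question was whether chaperone mRNA differed between the genotypes, taken over the 3 treatments. Of the 10 genes 5, which is 50%, were called at an adjusted p under 0.05, beside 39.8% of all genes tested. All 5 were higher in Htt Q111/+ mice: both inducible HSP70 genes, the constitutive HSP70, the HSP70 of the endoplasmic reticulum and 1 small heat shock protein. Among all genes, 21.8% were called higher. The median log2 fold change of the 10 was 0.11, against 0.0037 over all genes. The 5 calls are not 5 separate results, since Hspa1a and Hspa1b share sequence and are estimated jointly. Their summed counts were called as 1 gene (adjusted p = 0.0251). The Hspb1 call was lost under several alternatives given below, among them the sum with a gene listed as Hsp25 (adjusted p = 0.178).

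Hspa1a and Hspa1b encode the same inducible cytosolic HSP70 and are the usual marker genes of a heat shock response. Hspa1a ran from 3.33 through a median of 5.56 to 9.67 CPM in the 17 Htt +/+ mice, and from 4.50 through 7.24 to 11.7 CPM in the 18 Htt Q111/+ mice. The ranges overlapped, with 15 Htt Q111/+ mice above the Htt +/+ median and 3 above the highest Htt +/+ mouse. The fitted difference was 29.9% (log2 0.38, SE 0.125, adjusted p = 0.015).

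Hspa1b ran from 3.49 through 6.97 to 15.9 CPM in Htt +/+ mice and from 5.42 through 10.9 to 17.8 CPM in Htt Q111/+ mice. Here 14 of 18 Htt Q111/+ mice lay above the Htt +/+ median and 2 above its maximum. The fitted difference was 1.38-fold (log2 0.46, SE 0.182, adjusted p = 0.0404), and the call was lost without the choroid-rich library (0.47, adjusted p = 0.0508), without that rich in blood markers (0.45, adjusted p = 0.0598) and without any 1 of 16 other mice. The 2 genes are hard to count apart, since 58.8% of the 50-base runs of the Hspa1a transcript are also in Hspa1b. With their counts summed, levels ran from 7.11 to 25.5 CPM in Htt +/+ and from 9.91 to 29.5 CPM in Htt Q111/+ mice. The fitted difference of the sum was 0.42 in log2 (SE 0.151, adjusted p = 0.0251).

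Hspa8, which serves folding, clathrin uncoating and chaperone-mediated autophagy in unstressed cells, ran from 1616 through 1910 to 2249 CPM in Htt +/+ mice and from 1959 through 2074 to 2388 CPM in Htt Q111/+ mice. Every Htt Q111/+ mouse lay above the Htt +/+ median, and 10 of 17 Htt +/+ mice lay below the lowest Htt Q111/+ mouse. The difference was 9.99% (log2 0.14, SE 0.0382, adjusted p = 0.00409). In GENCODE, 73.2% of the 50-base runs of Hspa8 recur in other annotated loci, none of them a gene listed in the table by that name.

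Hsph1, an HSP110 that exchanges the nucleotide of HSP70, ran from 374 through 450 to 545 CPM in Htt +/+ and from 405 through 463 to 516 CPM in Htt Q111/+ mice. The Htt Q111/+ range lay inside that of the Htt +/+ mice. Its log2 fold change was 0.021, with a 95% confidence interval of -0.069 to 0.11 (adjusted p = 0.739).

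Hspa5, known as BiP, is the HSP70 of the endoplasmic reticulum and binds the sensors of the unfolded protein response. It had the smallest adjusted p of the 10. Levels ran from 328 through 387 to 466 CPM in Htt +/+ mice and from 388 through 475 to 516 CPM in Htt Q111/+ mice. All 18 Htt Q111/+ mice lay above the Htt +/+ median and 10 of them above the highest Htt +/+ mouse. The difference was 17.1% (log2 0.23, SE 0.040, adjusted p = 2.11e-05).

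Hsp90aa1 ran from 797 through 895 to 1077 CPM in Htt +/+ and from 872 through 946 to 1023 CPM in Htt Q111/+ mice, with no Htt Q111/+ mouse above the Htt +/+ maximum. Its log2 fold change was 0.058 (95% confidence interval -0.0089 to 0.13, adjusted p = 0.165). Dnajb1, the main stress-inducible J-domain partner of HSP70, ran from 33.5 to 51.8 CPM in Htt +/+ and from 37.0 to 49.9 CPM in Htt Q111/+ mice (log2 0.088, interval -0.016 to 0.19, adjusted p = 0.177). Dnajb5, a related J-domain protein, ran from 82.2 to 152 CPM and from 99.4 to 135 CPM (log2 -0.071, interval -0.18 to 0.040, adjusted p = 0.32). None of these 3 passed the test, and all 3 intervals include 0. With library totals in place of TMM, Hsp90aa1 (0.097, adjusted p = 0.0131) and Dnajb1 (0.13, adjusted p = 0.0356) were called. That scaling also moved the median log2 fold change of all genes upward, as given for Cryab below.

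Hspb1, the small heat shock protein HSP27 of human cells, ran from 3.14 through 4.37 to 6.75 CPM in Htt +/+ and from 4.06 through 5.27 to 7.01 CPM in Htt Q111/+ mice. The fitted log2 fold change was 0.19 (SE 0.0792, adjusted p = 0.0489), the weakest of the 5 calls. The call was lost under edgeR (adjusted p = 0.0566) and DESeq2 (adjusted p = 0.0557), with mouse-name letters as a random factor (adjusted p = 0.0512), with no filter (0.057), with lane as a covariate (0.319), without lane 7 (0.199), and without any 1 of 24 mice, among them the library rich in blood markers (0.19, adjusted p = 0.0619). The table also lists a gene under the name Hsp25, an older name of both Hspb1 and Hsbp1, at 2.88 ± 0.487 CPM (SD, n = 35), and a GENCODE pseudogene, Hsp25-ps1, holds 58.9% of the 50-base runs of Hspb1. With Hsp25 added to Hspb1 the log2 fold change was 0.13 (SE 0.0734, adjusted p = 0.178).

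Cryab, the other small heat shock protein and one that oligodendrocytes express strongly, ran from 114 through 151 to 221 CPM in Htt +/+ and from 116 through 144 to 171 CPM in Htt Q111/+ mice. Its log2 fold change was -0.038 (95% confidence interval -0.16 to 0.086, adjusted p = 0.66). With library totals in place of TMM its sign turned (0.00039), a scaling under which the median of all genes moved to 0.043.

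Within lanes, the sign of the genotype difference held for the abundant HSP70 genes. Hspa5 and Hspa8 were higher in Htt Q111/+ mice in 5 of the 5 lanes with both genotypes, by 0.067 to 0.41 and by 0.029 to 0.35 in mean log2 CPM, and so was Hsp90aa1, by 0.00088 to 0.25. Hspa1a, Hspa1b and Dnajb1 were higher in 4 of 5 lanes, and Hspa1b ranged from -0.65 to 0.89. Hspb1 was higher in 3 lanes, and Hsph1, Dnajb5 and Cryab in 2. A lane held 2 to 4 mice of a genotype, so single lanes were not tested. A fit that adds lane left Hspa1a, Hspa5 and Hspa8 as the 3 calls, and so did one without the mice of lane 7.

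**Figure D2:**
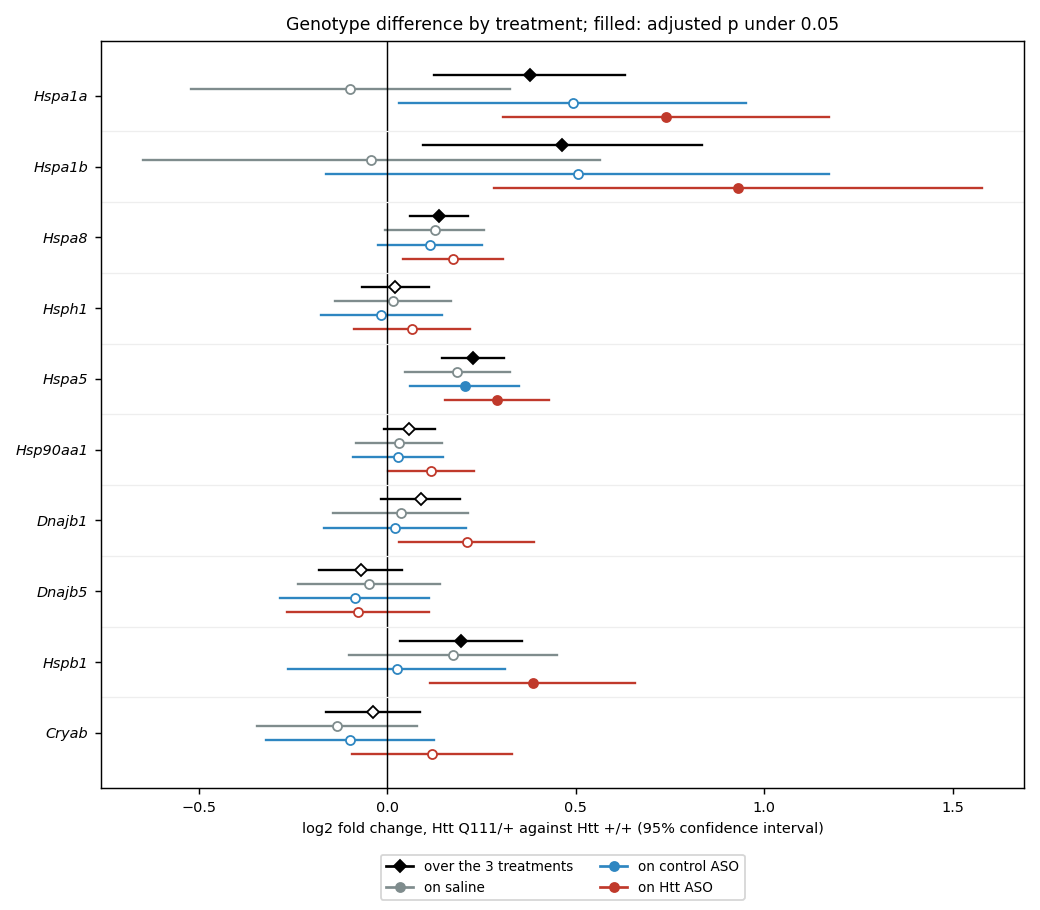
Log2 fold change of Htt Q111/+ against Htt +/+ mice with its 95% confidence interval for the 10 genes, over the 3 treatments (black) and on saline (grey), control ASO (blue) and Htt ASO (red). Filled symbols are differences with an adjusted p under 0.05; for Hspa1b the estimates run from -0.043 on saline to 0.93 on Htt ASO, with wide intervals.

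Taken treatment by treatment, in groups of 5 or 6 mice, the calls numbered 0, 1 and 4. On saline, limma called none of the 10 (17.4% of all genes, 8.67% higher), with 1 at an unadjusted p under 0.05. edgeR also called 0 and DESeq2 1 (Hspa5, 0.18, adjusted p = 0.0477). On control ASO, Hspa5 was called (18.5% of all genes, 10.1% higher), and on Htt ASO Hspa1a, Hspa1b, Hspa5 and Hspb1 (21.2%, 10.9% higher). edgeR called the same genes there, and DESeq2 those and Hspa8. Each of these was higher in Htt Q111/+ mice.

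For Hspa5 the 3 estimates lay between 0.19 and 0.29. On saline it ran from 351 through 375 to 466 CPM in Htt +/+ and from 388 through 443 to 499 CPM in Htt Q111/+ mice, with 2 Htt Q111/+ mice above the highest Htt +/+ mouse (log2 0.19, SE 0.0682, adjusted p = 0.0561). On control ASO the 5 Htt +/+ mice had 328, 402, 421, 430 and 460 CPM and the Htt Q111/+ mice ran from 425 through 475 to 484 CPM, 5 of the 6 above every Htt +/+ mouse (0.20, SE 0.0714, adjusted p = 0.0417), a call lost without the library rich in blood markers (0.20, adjusted p = 0.0743). On Htt ASO the ranges separated, 367 through 386 to 411 CPM against 432 through 483 to 516 CPM (0.29, SE 0.0681, adjusted p = 0.00179).

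For the inducible HSP70 genes the estimates were spread more widely. Hspa1a on saline ran from 4.95 through 6.74 to 9.67 CPM in Htt +/+ and from 4.90 through 6.18 to 8.29 CPM in Htt Q111/+ mice, the latter inside nearly the same range (log2 -0.099, SE 0.208). On control ASO the Htt +/+ mice had 3.96, 4.62, 5.37, 6.36 and 6.44 CPM against 4.50 through 7.59 to 10.5 CPM (0.49, SE 0.227, adjusted p = 0.134). On Htt ASO they ran from 3.33 through 5.16 to 7.08 CPM against 5.38 through 8.29 to 11.7 CPM, 5 of 6 Htt Q111/+ mice above every Htt +/+ mouse (0.74, SE 0.213, adjusted p = 0.011).

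Hspa1b followed the same course. On saline it ran from 5.80 through 8.30 to 15.9 CPM in Htt +/+ and from 6.82 through 7.64 to 13.6 CPM in Htt Q111/+ mice (log2 -0.043, SE 0.298). On Htt ASO it ran from 3.78 through 6.12 to 7.99 CPM and from 5.54 through 12.2 to 17.8 CPM, again with 5 of 6 above every Htt +/+ mouse (0.93, SE 0.318, adjusted p = 0.0336). Between these, on control ASO, the difference was 0.50 (SE 0.328, adjusted p = 0.307), with 1 Htt +/+ mouse at 14.0 CPM and the other 4 between 3.49 and 7.82.

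Of the 3 treatments, limma called Hspb1 on Htt ASO. It ran there from 3.14 through 4.50 to 5.53 CPM in Htt +/+ and from 4.38 through 5.90 to 7.01 CPM in Htt Q111/+ mice, with 4 of 6 above every Htt +/+ mouse (log2 0.39, SE 0.134, adjusted p = 0.0361). The call was lost in 5 of 13 alternatives: summed with Hsp25 (0.31, adjusted p = 0.0702), with lane as a covariate (adjusted p = 0.161), with mouse-name letters as a random factor (0.0531), with only the groups compared (0.0809) and without lane 7 (0.0957). On control ASO the Htt +/+ mice had 3.97, 4.83, 4.98, 5.23 and 5.64 CPM against 4.06 through 4.98 to 5.81 CPM, nearly the same range (0.024, SE 0.142). On saline they ran from 4.11 through 4.24 to 6.75 CPM against 4.14 through 5.27 to 6.16 CPM (0.17, SE 0.136).

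Hspa8 was not called within a treatment by limma, with estimates of 0.13, 0.11 and 0.17 for saline, control ASO and Htt ASO (adjusted p = 0.203, 0.265 and 0.0542). On Htt ASO it ran from 1773 through 1859 to 2016 CPM in Htt +/+ and from 1979 through 2127 to 2277 CPM in Htt Q111/+ mice, 4 of 6 above every Htt +/+ mouse, and DESeq2 called it there (0.17, adjusted p = 0.0491), as did limma with library totals, with quality weights and with only the groups compared. Dnajb1 gave 0.035, 0.020 and 0.21 in the same order (adjusted p = 0.853, 0.912 and 0.0864; called on Htt ASO under the same 3 settings), Hsp90aa1 0.031, 0.028 and 0.11, and Hsph1 0.015, -0.017 and 0.065. On Htt ASO, 4 of 6 Htt Q111/+ mice also lay above every Htt +/+ mouse for each of Hsp90aa1, Hsph1 and Dnajb1. None of these genes passed the main test there. They vary together between mice, and the share of all genes with such a count was not taken. Cryab lay at -0.13, -0.099 and 0.12, and Dnajb5 at -0.048, -0.087 and -0.077. The median over the 10 genes was 0.023, 0.026 and 0.19 in that order, against 0.0088, 0.0023 and 0.0057 over all genes.

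Whether the genotype difference itself depended on treatment was tested by interaction terms, and limma called none of the 10 genes. It called 0% of all genes in each of the 3 terms, and the genes at an unadjusted p under 0.05 numbered 713 (Htt ASO against control ASO), 973 (Htt ASO against saline) and 1169 (control ASO against saline). In the same order edgeR called 0 genes each time and DESeq2 called 0, 0 and 1. The largest were those of Htt ASO against saline, 0.84 for Hspa1a (SE 0.298, unadjusted p = 0.00808, adjusted p = 0.85) and 0.97 for Hspa1b (SE 0.436, unadjusted p = 0.0324, adjusted p = 0.85). They were the only 2 members under an unadjusted 0.05, as were 5.52% of all genes in that term. For Htt ASO against control ASO no member was under it, although all 10 estimates lay above 0, from 0.010 for Dnajb5 to 0.43 for Hspa1b. For control ASO against saline 4 of 10 lay above 0. The largest there were 0.59 for Hspa1a (SE 0.308, unadjusted p = 0.0641) and 0.55 for Hspa1b (SE 0.443, unadjusted p = 0.225). These 3 contrasts reuse the same mice, and the members vary together between mice, so the 10 signs are not 10 separate observations. No member was called by edgeR or DESeq2.

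The second question was whether lowering huntingtin with the Htt ASO changed chaperone mRNA in the striatum. No member was called over both genotypes against control ASO (0.935% of all genes were) or against saline (1.47%), nor in Htt Q111/+ mice alone against control ASO (0.357%) or saline (0.556%), nor in Htt +/+ mice alone against control ASO (0.295%) or saline (0.726%). For control ASO against saline limma called 0% of all genes, over the genotypes or within either, with 1357 genes at an unadjusted p under 0.05 over both, 512 in Htt Q111/+ and 2080 in Htt +/+ mice. There edgeR called 0 genes each time and DESeq2 called 0, 1 and 4. Over all 9 of these contrasts 2 members were under an unadjusted 0.05, both in Htt +/+ mice on Htt ASO against saline, where 10.5% of all genes were. In these contrasts edgeR and DESeq2 called no member. The contrasts against control ASO and saline share the Htt ASO mice, and the values below are set side by side for that reason.

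Those 2 were Cryab and Hspa1a, both lower on Htt ASO. Cryab in Htt +/+ mice ran from 128 through 153 to 221 CPM on saline and from 114 through 132 to 164 CPM on Htt ASO, with overlap (log2 -0.26, SE 0.105, unadjusted p = 0.0174, adjusted p = 0.375). On control ASO it was 114, 146, 154, 161 and 161 CPM, and the difference of Htt ASO from control ASO was -0.12 (SE 0.110). In Htt Q111/+ mice it was -0.0093 against saline and 0.096 against control ASO. Hspa1a gave -0.46 in Htt +/+ mice against saline (SE 0.221, unadjusted p = 0.046, adjusted p = 0.466) and -0.096 against control ASO, and in Htt Q111/+ mice 0.38 (SE 0.199, adjusted p = 0.841) and 0.15.

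For the abundant genes the intervals of a treatment effect were narrow. Over both genotypes, Htt ASO against saline gave log2 fold changes of -0.018 for Hspa8 (95% confidence interval -0.11 to 0.076), 0.042 for Hspa5 (-0.056 to 0.14), -0.018 for Hsp90aa1 (-0.098 to 0.063) and 0.0048 for Hsph1 (-0.10 to 0.11). For Hspa1b the interval was wide, -0.61 to 0.28 around -0.16.

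**Figure D3:**
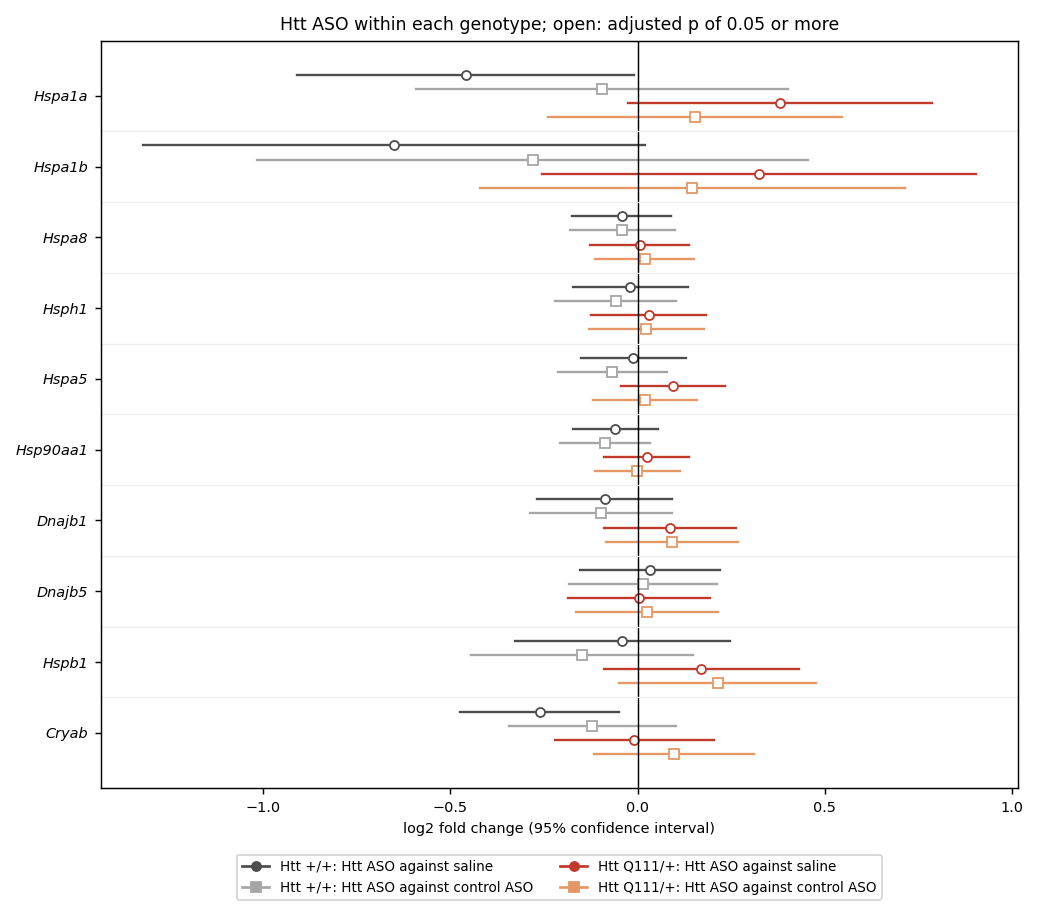
Log2 fold change with its 95% confidence interval for Htt ASO against saline (circles) and against control ASO (squares) in Htt +/+ mice (greys) and Htt Q111/+ mice (red and orange). All symbols are open since no difference passed. Against either comparison group, 9 of 10 estimates in Htt Q111/+ mice lie above 0 and 1 of 10 in Htt +/+ mice. The genes vary together between mice and both comparisons share the Htt ASO mice, so these signs are not separate observations.

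Within a group, chaperone levels varied between mice more than those of most genes of similar level, and they varied together. The SD of log2 CPM within groups was 0.56 for Hspa1b, 0.38 for Hspa1a, 0.24 for Hspb1, 0.19 for Cryab and 0.10 to 0.17 for the other 6, against a median of 0.12 over all genes tested. Among all genes Hsp90aa1, Hspa8 and Hspa5 stood at the percentiles 42.0, 50.1 and 52.4. Since noise falls with level, each was also ranked among genes of 0.5 to 2 times its own mean CPM. There the 10 stood between the percentiles 81.7 (Hspb1) and 98.7 (Hspa1b).

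After the group means were removed, all 45 pairs of members had a Pearson r above 0 over the 35 mice, from 0.21 to 0.89 with a median of 0.63. Of the 45, 41 passed a permutation test within groups (100000 resamples, two-sided, Benjamini-Hochberg adjusted over the 45), and 41 kept a positive r when the 2 mice farthest from the median of the first gene were left out, of which the smallest was 0.26. As background, the median r of a member with the 15080 genes of at least 1 CPM that are not members was between -0.015 and 0.025. Only 0.0862% of those genes had an r with Hspa1b above its median r with the other members, 0.699. For Hsph1 it was 3.22% and for Dnajb5 6.02%.

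Hspa8, Hsph1, Dnajb1 and Hsp90aa1, the cytosolic HSP70 machine with HSP90, held the 4 highest values. Hspa8 and Hsph1 had r = 0.89 and rho = 0.90, Hspa8 and Dnajb1 r = 0.87 and rho = 0.85, Hspa8 and Hsp90aa1 r = 0.87 and rho = 0.85, and Hsp90aa1 and Hsph1 r = 0.86 and rho = 0.90. For each of these 4 pairs both permutation p-values were 1e-05, the smallest that 100000 resamples can give, and the adjusted p of r was 5e-05. Without the 2 farthest mice r was 0.87, 0.82, 0.84 and 0.87. The other pairs of these genes were lower, Hsph1 and Dnajb1 at 0.83 and Hsp90aa1 and Dnajb1 at 0.69, the latter below several pairs outside them. Hspa1a and Hspa1b, whose shared sequence can tie their counts, had r = 0.86 (rho = 0.86, without the 2 mice 0.82), and the small heat shock proteins Hspb1 and Cryab r = 0.77 (rho = 0.73, without the 2 mice 0.70).

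Dnajb5 stood at the edge. It passed with 5 of the other 9 members, whereas every other member passed with 8 or 9, and its r was 0.21 with Hspa1a (rho = 0.24, adjusted permutation p = 0.282) and 0.27 with Hspa1b (rho = 0.25, adjusted permutation p = 0.15).

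Some mice were high or low across the members. Others were mixed, such as Htt +/+ saline replicate 2, with 5 of 10 genes above its group means. In 7 of 35 mice all 10 genes lay on 1 side of their group means, and in 11 more 9 of the 10 did. The Htt +/+ saline mouse replicate 1 was the highest of its group in 9 of 10 genes, with a median deviation of 0.33 in log2 CPM, and the Htt +/+ control ASO mouse replicate 4 was the lowest in 9 of 10, with -0.30. These extremes were in lanes 8 and 4. With lane removed as well as group, 41 pairs again passed with a median r of 0.69, and with library totals 40.

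**Figure D4:**
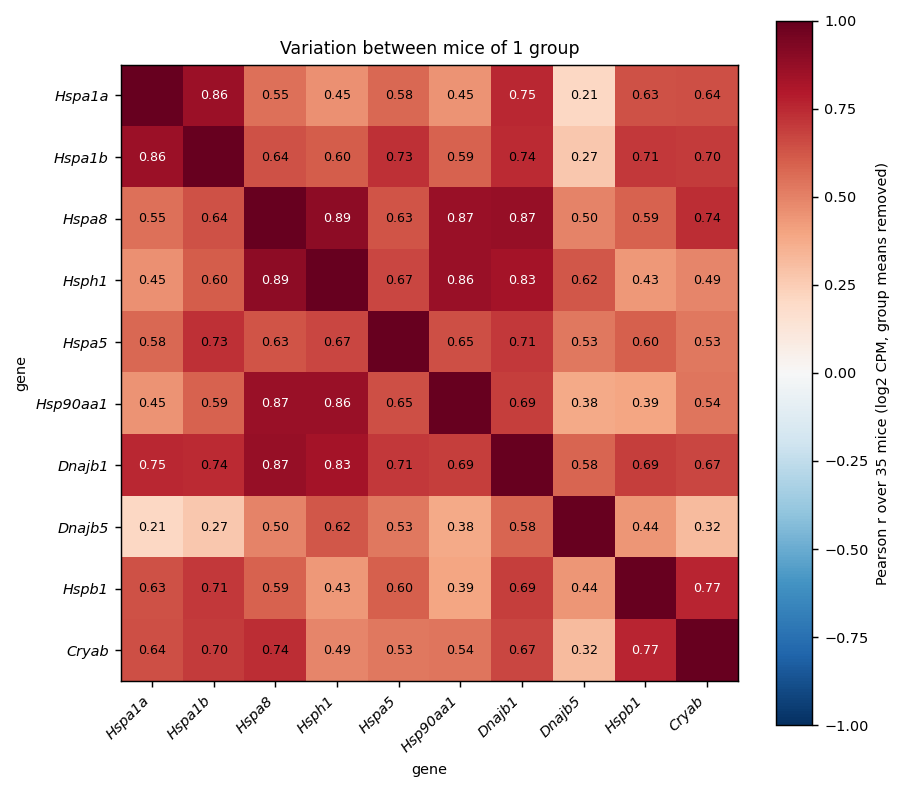
Pearson r between each pair of the 10 genes over 35 mice, from log2 CPM with group means removed; the colour scale runs from -1 (blue) to 1 (red). All off-diagonal values are positive, highest between Hspa8 and Hsph1 (0.89) and lowest between Dnajb5 and Hspa1a (0.21).

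The 2 genes most like each member were taken by the same r over the genes of at least 1 CPM. For Hspa8, Hsp90aa1, Dnajb1 and Cryab both were chaperones or cochaperones. For each of the other members at least 1 of the 2 was a gene of another kind. Hspa8 was closest to Stip1 (r = 0.94), which links HSP70 to HSP90, and to Hsp90ab1 (0.91), the constitutive cytosolic HSP90. Hsp90aa1 was closest to Chordc1 (0.94), an HSP90 cochaperone, and Dnaja1 (0.93), and Hsph1 to Tra2a (0.91), a splicing factor, and Hspa4 (0.91), another HSP110. For Dnajb1 they were Hsp90ab1 (0.88) and Hspa8 (0.87), for Cryab Fkbp4 (0.84) and Ahsa1 (0.82), both cochaperones of HSP90, and for Hspb1 Tjap1 (0.84) and Fkbp4 (0.83).

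Hspa5 passed the permutation test with all 9 other members, but the genes closest to it were not members. Its 2 closest genes were Manf, listed as Armet (0.89), a secreted protein of the unfolded protein response, and Pdia4 (0.88), a disulfide isomerase of the endoplasmic reticulum. Hspa1a was closest to Hspa1b (0.86) and then Epha2 (0.78), and Hspa1b to Hspa1a and then Zbtb40 (0.81). Dnajb5 was closest to Egr1 (0.90), an immediate early transcription factor of active neurons, and Mpp3 (0.89), a scaffold protein. These are descriptions over the same 35 libraries, without a test.

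The other chaperone genes, taken from lists of the families, gave the setting of the genotype difference. Of 83 other chaperones and cochaperones tested, 34 were higher and 10 lower in Htt Q111/+ mice, 53.0% called in all beside 39.8% of all genes, and the median log2 fold change was 0.050 beside 0.0037. In the treatment and interaction contrasts limma, edgeR and DESeq2 called 0 of these 83. At most 13 were under an unadjusted p of 0.05, in Htt +/+ mice on Htt ASO against saline, where 10.5% of all genes were.

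The chaperonins, rings that fold actin and tubulin in the cytosol and imported proteins in mitochondria, were the most uniform, with 8 of 10 higher and none lower. Cct2 rose from 124 ± 2.71 to 133 ± 3.42 CPM (SD, n = 17 and 18; log2 0.10, adjusted p = 2.14e-07), and Cct3 and Cct6a by 0.093 and 0.11. Of the other HSP70 and HSP110 genes, 4 of 10 were higher, among them Hspa13 (listed as Stch; 0.18, adjusted p = 3.35e-07) and Hspa2 (0.15, adjusted p = 3.17e-05), and 2 lower, among them Hspa4 (-0.11, adjusted p = 7.98e-05). The 3 other HSP90 genes split: mitochondrial Trap1 (0.12) and cytosolic Hsp90ab1 (0.079) were higher, and Hsp90b1 of the endoplasmic reticulum was lower (-0.076, adjusted p = 0.0125).

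Of 35 other J-domain genes, 12 were higher and 5 lower, 48.6% called beside 39.8% of all genes. Dnajc6, the neuronal auxilin that calls Hspa8 to clathrin coats, rose by 0.15 (adjusted p = 1.09e-10), and Dnajc8 and Dnajc2 fell, by 0.26 and 0.25. Of 21 cochaperones 8 were higher and 2 lower (47.6% called), with Bag2 at 0.45 (3.31 ± 0.342 against 4.53 ± 0.422 CPM, SD, n = 17 and 18; adjusted p = 4.92e-09), Fkbp4 at 0.22 (adjusted p = 9e-07) and Bag4 at -0.16 (adjusted p = 8.63e-08). Of the 4 other small heat shock proteins tested limma and edgeR called 0, with 1 under an unadjusted p of 0.05, and DESeq2 called 1 lower.

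HSF1 itself did not pass (Hsf1, -0.0064, adjusted p = 0.857), while Hsf2 (0.068, adjusted p = 0.0381) and Hsbp1, a binding partner of HSF1 (0.085, adjusted p = 0.000108), were higher. Of 11 other genes known as HSF1 targets, all of them counted in the lists above, 6 were higher and none lower (54.5% called), led by Fkbp4, Ahsa1 (0.16) and Stip1 (0.15). Of 22 genes of the endoplasmic reticulum stress response 11 were higher (59.1% called in all, beside 39.8% and 21.8% higher over all genes), with Pdia3 at 0.14 (adjusted p = 2.37e-05) and Herpud1 at 0.11 (adjusted p = 0.000576), and 2 were lower. One of these was Atf6, an upstream sensor of that response, at -0.47 (132 ± 7.91 against 95.3 ± 5.48 CPM, SD, n = 17 and 18; adjusted p = 1.19e-15).

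**Figure D5:**
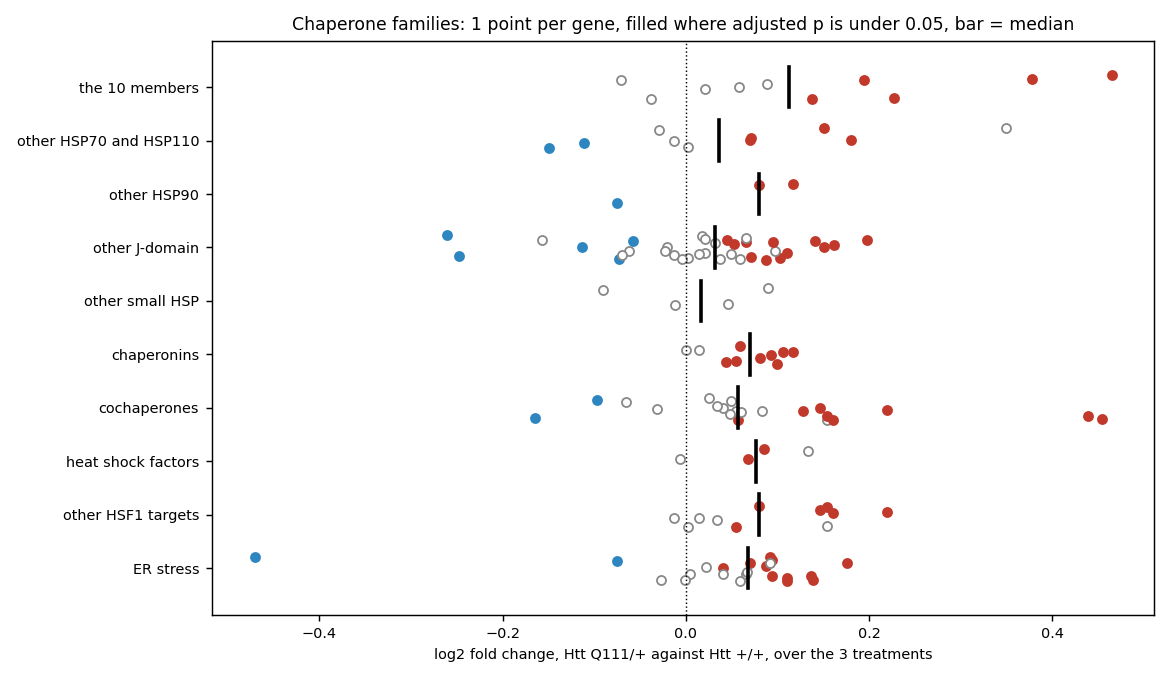
Log2 fold change of Htt Q111/+ against Htt +/+ mice over the 3 treatments for the 10 genes (top row) and each tested gene of the other chaperone and stress lists (points), with the list median as a bar; red is called higher, blue called lower and open not called. Chaperonins lie from 0.00055 to 0.12 with 8 of 10 called higher, and Atf6 in the endoplasmic reticulum list lies farthest to the left at -0.47.

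Genes of other responses were measured beside these. Both cold-inducible RNA-binding genes, Rbm3 and Cirbp, were higher in Htt Q111/+ mice (0.36, adjusted p = 1.85e-05, and 0.22, adjusted p = 0.0103). Of 10 immediate early genes 4 were lower and none higher, led by Egr2 (-0.93), Egr1 (-0.38) and Dusp1 (-0.30), and of 7 glucocorticoid-responsive genes 3 were lower, Sgk1 (-0.32), Per1 (-0.30) and Mt2 (-0.14). The shares called, 40% and 42.9%, stand beside 39.8% of all genes. Their part in the chaperone differences was not tested. Sgk1, listed as Sgk, also fell on Htt ASO, by 0.34 against control ASO (adjusted p = 0.000401) and by 0.27 against saline, as did Mt2 (-0.20) and Tsc22d3 (-0.18) against saline.

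Markers of cell types were summed in each mouse. The summed level of 8 medium spiny neuron markers was 6992 to 8161 CPM in Htt +/+ and 4636 to 5554 CPM in Htt Q111/+ mice without overlap, with 7 of 8 lower, led by Penk (-0.92), Pde10a (-0.79) and Adora2a (-0.71), and Tac1 higher (0.13). In bulk tissue fewer cells of a type and less RNA per cell cannot be told apart. The 9 oligodendrocyte markers summed to 9647 to 12830 CPM against 9249 to 11284, with 3 lower, among them Mobp (-0.19) and Cldn11 (-0.18). The mouse with the highest Cryab, Htt +/+ saline replicate 1 at 221 CPM, also had the highest oligodendrocyte sum. That mouse was the highest of its group in 9 of the 10 chaperone genes. Whether Cryab followed the oligodendrocyte sum over the mice was not tested.

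Astrocyte markers summed to 949 to 1259 CPM against 903 to 1101, with 3 of 7 lower (Slc1a3 -0.11, Slc1a2 -0.73, Aqp4 -0.12), and microglial markers to 315 to 370 against 282 to 342, with 3 of 6 lower (P2ry12 -0.12, Cx3cr1 -0.11, Aif1 -0.14). The shares called of oligodendrocyte, astrocyte and microglial markers, 33.3%, 42.9% and 50%, stand beside 39.8% of all genes. Endothelial markers summed to 202 to 320 CPM against 180 to 211, with 5 of 6 lower (Slco1a4 -0.24, Kdr -0.30 and Flt1 -0.19 among them), and mural markers to 110 to 137 against 95.5 to 120, with 4 of 6 lower, led by Tagln (-0.49), Rgs5 (-0.24) and Pdgfrb (-0.14). On Htt ASO, Tek was lower (-0.57 against control ASO, -0.58 against saline) and Pecam1 (0.20) and Rgs5 (0.16) higher against saline. Choroid plexus markers had 1 of 5 lower (Otx2, -0.44), and limma, edgeR and DESeq2 called 0 of the 5 cortical neuron markers (7.61 to 72.6 CPM in all mice) and 0 of the 2 blood markers (10.6 to 240 CPM), with 0 under an unadjusted p of 0.05. The Otx2 call was near the threshold (limma, adjusted p = 0.0487). Marker calls were not retested without the Htt +/+ control ASO libraries that stood apart in choroid plexus, endothelial and blood markers. The part of cell make-up in the chaperone values was not tested.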

How the data were processed

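Striatal mRNA of 35 mice was sequenced by the authors as stranded paired reads (TruSeq), aligned with Bowtie 0.12.9 to the mouse transcriptome (mm9) and summed to genes with RSEM 1.1.18, per the labels and the study's methods. The deposited values are RSEM expected counts (estimated counts; 55.6% whole), which divide reads that fit several transcripts, so near-identical genes such as Hspa1a and Hspa1b are estimated jointly. No pair of libraries within a group agreed within sampling noise (chi-square per degree of freedom 3.57 to 16.5 over 85 pairs).

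Genes were kept with filterByExpr (17639 of 22099), scaled by TMM in edgeR 4.0.16 and fitted in limma 3.58.1 after voom (R 4.3.3), with 6 group means and 1 shared spread (29 residual degrees of freedom). P-values are Benjamini-Hochberg adjusted over all tested genes, called under 0.05, for 16 contrasts. Counts were rounded for edgeR and DESeq2 1.42.0. The fit was tested on simulated data for genotype over treatments (17546 genes). There 83 of 100 genes changed by 0.5 in log2 and 91 of 97 changed by 1 were called, as were 7 unchanged genes. Smaller changes, the size of every member's difference in that contrast, were not simulated.

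Log2 CPM used a prior count of 2. Confidence intervals are 95%. GENCODE M21 gave transcript lengths and shared 50-base runs, and RefSeq promoters on GRCm38.p6 the sequences; the deposited table has no coordinates. Of 192 symbols in the lists, 172 matched by name and 17 by an older name.

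The 10 genes, the gene lists and the comparisons were chosen with earlier results of these data known. Beside the 10 and Htt, the text names up to 3 called genes of each list with the smallest adjusted p for genotype, list genes called in a treatment contrast, and the 2 genes closest to each member by r. A gene that this rule names is not reported here. Beyond these, Hsf1 and Tac1 were named after their values were seen. Labels name the ASO as ASO1, read as the Htt ASO. Alternatives, including summed counts chosen after seeing the data, are in the closing section.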

Additional observations from a re-analysis of the deposited data

Results flagged for a closer look

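Among the 66 sets of 5 or 6 mice examined (the 10 genes and Htt in 6 groups), 6 held a mouse whose gap to its nearest neighbour took up more of the group's range than Dixon's 95% limit allows. Chance flags about 1 in 20 groups, or 3.3 of 66. The Htt +/+ saline mouse replicate 1 was the highest of its group for Hspb1, 6.75 CPM against a group median of 4.24, and for Dnajb1, 51.8 CPM against 40.3; without it the genotype difference on saline called 1 gene in place of 0. The Htt Q111/+ control ASO group held a low mouse for Hspa5 (replicate 1, 425 CPM against a median of 475) and a high one for Hspa8 (replicate 5, 2273 CPM against 2061). Of the Htt +/+ Htt ASO mice, replicate 2 was high for Hsp90aa1 (943 CPM against 875) and replicate 6 low for Hsph1 (408 CPM against 448).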

How the results depend on the processing

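No member was called in the treatment and interaction contrasts under any alternative tried or with any 1 mouse left out. Hspa1a, Hspa5 and Hspa8 over treatments, and Hspa1a and Hspa5 on Htt ASO, were called under every alternative and with each mouse left out (Hspa5 log2 0.22 to 0.27 and Hspa8 0.13 to 0.18 over the alternatives). Over treatments the 5 calls fell to 3 with lane as a covariate and without lane 7, rose to 7 with library totals (Hsp90aa1 and Dnajb1 gained), and lay between 3 and 5 with each mouse left out. On saline, 0 became 1 with DESeq2, library totals, a mean of at least 1 CPM or quality weights, and 0 to 1 with each mouse left out (1 without any one of Htt +/+ saline replicates 1 and 4, Htt +/+ control ASO 3 and 4, and Htt Q111/+ saline 3 and 4). On control ASO, 1 became 0 with lane as a covariate, quality weights, only the groups compared, and without the left-side mouse or lane 7, and 0 to 2 with each mouse left out. On Htt ASO, 4 became 7 with library totals and 2 without lane 7, and 2 to 6 with each mouse left out. Library totals turned the sign of Cryab (0.00039, adjusted p = 0.997). Over treatments they also moved the median log2 fold change of all genes upward. The causes were not tested.

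The Hspa1b call over treatments was lost without any of 18 mice (saline Htt +/+ 2, 5 and 6 and Htt Q111/+ 2 and 5; control ASO Htt +/+ 1, 2 and 4 and Htt Q111/+ 2, 3, 5 and 6; Htt ASO Htt +/+ 4 and 5 and Htt Q111/+ 1, 4, 5 and 6; adjusted p up to 0.0874), and that of Hspb1 without any of 24, all but Htt +/+ saline 1, control ASO 1 and 3 and Htt ASO 3 and 6, and Htt Q111/+ saline 3 and 4, control ASO 1 and 6 and Htt ASO 2 and 3 (adjusted p up to 0.101). On Htt ASO the Hspa1b call was lost without 6 mice (Htt +/+ 4 and 5 and Htt Q111/+ 1, 4, 5 and 6) and the Hspb1 call without 6 (Htt +/+ 2, 4 and 5 and Htt Q111/+ 1, 4 and 5). Hspa5 on control ASO was lost without any of 13 (Htt +/+ saline 2 and 5, control ASO 2 and 4 and Htt ASO 1, 4, 5 and 6, and Htt Q111/+ control ASO 2 to 6; adjusted p up to 0.191). Dnajb5 was called lower without Htt +/+ saline replicate 3 (-0.11, adjusted p = 0.0465). No paired analysis was possible because the labels give no replicate numbers that groups share. The letters in mouse names (21, of which 8 are shared by several mice; their meaning is not stated) were fitted as a random factor instead (consensus correlation 0.0909), which lost the Hspb1 calls over treatments (adjusted p = 0.0512) and on Htt ASO (adjusted p = 0.0531). Pairs of members that passed numbered 38 to 41 of 45 over the alternatives. The spread between mice, widest for Hspa1b (SD 0.56 in log2 CPM within groups), limits the size of change these contrasts can show.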
